A study of Mus musculus with 15 samples.

Results

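RNA levels of 9 neural progenitor and neuronal genes, Pax6, Nes, Sox1, Sox3, Sox11, Meis1, Meis2, Tubb3 and Zeb2, were followed in mouse embryonic stem cells lacking one or both STAG subunits of cohesin. The genes were chosen by symbol, all 9 were among the 23412 genes counted, and all 9 passed the filter on low counts that left 14508 genes for testing. Pax6 and Nes were also used by the study as ectoderm genes on these same libraries, so their direction here is not independent of that choice. Cohesin is the ring-shaped complex that holds sister chromatids together and forms chromatin loops, and each ring contains either STAG1 or STAG2.

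The 15 libraries were made from male v6.5 embryonic stem cells grown on gelatin, 3 per condition. All cells were transfected at 50 nM, either with siGLO, a transfection control, or with siStag1, siRNA against Stag1, and were collected after 48 h. The 5 conditions were wild-type cells with siGLO or siStag1, Stag1-/- cells with siGLO, and Stag2-/- cells with siGLO or siStag1, the last being the dual loss condition. Each knockout line was 1 CRISPR clone, so clone and genotype cannot be told apart. The Stag1-/- clone carries an in-frame deletion that leaves its transcript in place, and Stag1 RNA was 2023 ± 300.2 normalized counts there against 2146 ± 138 in wild-type siGLO (SD, n = 3), so the RNA does not check that genotype. Stag1 was 4.86-fold lower in wild-type siStag1 and 3.10-fold lower in Stag2-/- siStag1, and Stag2 was 3.37-fold lower in Stag2-/- siGLO, each against wild-type siGLO. Counts on genes ranged from 14982560 to 19070126 per library. A normalized count below is the read count of a gene scaled to a common library size by the trimmed mean of M values, and does not correct for gene length.

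In the early embryo, cells of the ectoderm that take the neural route switch on SOXB1 factors, which hold them in a dividing progenitor state. These progenitors carry PAX6 and the intermediate filament protein nestin, and their daughters take on neuronal proteins such as class III beta-tubulin when they stop dividing. SOXB1 factors and the pluripotency network overlap, since SOX2 serves in both, and embryonic stem cells in culture can drift toward early neural or primed epiblast states. Pax6 encodes a paired box and homeobox factor of the eye and brain, Sox1 and Sox3 encode SOXB1 factors, Sox11 encodes a SOXC factor of progenitors and young neurons, Meis1 and Meis2 encode homeobox partners of HOX proteins, and Zeb2 encodes a zinc-finger repressor that takes part in neural induction.

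Pax6 spans chr2:105668900-105697364 on the plus strand of mm10 (GENCODE M21). Nes lies at chr3:87971078-87980451 on the plus strand. Sox1 and Tubb3 are both on the plus strand of chromosome 8, at chr8:12395295-12400126 and chr8:123411424-123422015. Sox3 lies at chrX:60891366-60893430 and Sox11 at chr12:27334264-27342574, both on the minus strand, and Sox1, Sox3 and Sox11 each have 1 exon. Meis1 lies at chr11:18879817-19018985, Meis2 at chr2:115863064-116065839 and Zeb2 at chr2:44983632-45117395, all on the minus strand. The strand setting of the counting is not given in the sources used here, and exons of antisense transcripts cover 653 exonic bases of Zeb2 (Zeb2os) and 896 of Meis1 (Gm16140), so reads of these pairs may not be told apart. Gm37818, on the same strand as Meis1, shares 1029 exonic bases with it, so a strand setting would not separate those reads. None of these overlapping transcripts was analysed here.

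The sequence upstream of 4 genes that were higher in both Stag2-/- conditions is shown, because these are among the genes the results turn on and each has a window that lies outside annotated exons, wholly or, for Nes, in its first 235 bases. The windows come from RefSeq (GRCm38.p6) and hold the 250 bases before an annotated start. RefSeq gave 2 such windows for Pax6 and 4 for Zeb2, of which the one farthest upstream is shown, and the remaining windows begin inside an exon, as does that of Meis2. Sox3 had no window. They are written 5′ to 3′ on the strand of the gene, and capitals mark CG dinucleotides. Pax6 is chr2:105668646-105668895 (plus), Nes is chr3:87970843-87971077 (plus), Sox11 is chr12:27342719-27342968 (minus) and Zeb2 is chr2:45117443-45117692 (minus).
Pax6: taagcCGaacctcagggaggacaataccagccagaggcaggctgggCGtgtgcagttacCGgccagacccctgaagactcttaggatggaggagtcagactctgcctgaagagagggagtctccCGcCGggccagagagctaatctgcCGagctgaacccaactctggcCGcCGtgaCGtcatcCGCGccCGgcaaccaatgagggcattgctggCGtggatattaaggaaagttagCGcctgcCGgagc
Nes: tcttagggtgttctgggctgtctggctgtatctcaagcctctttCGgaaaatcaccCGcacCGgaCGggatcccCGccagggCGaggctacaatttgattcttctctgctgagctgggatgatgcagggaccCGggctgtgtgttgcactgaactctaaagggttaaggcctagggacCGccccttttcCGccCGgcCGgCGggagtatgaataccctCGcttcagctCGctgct
Sox11: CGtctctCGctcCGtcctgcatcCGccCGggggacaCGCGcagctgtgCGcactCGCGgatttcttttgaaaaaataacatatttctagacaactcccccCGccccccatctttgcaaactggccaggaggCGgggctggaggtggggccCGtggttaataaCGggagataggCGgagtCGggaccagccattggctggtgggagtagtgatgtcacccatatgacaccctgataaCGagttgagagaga
Zeb2: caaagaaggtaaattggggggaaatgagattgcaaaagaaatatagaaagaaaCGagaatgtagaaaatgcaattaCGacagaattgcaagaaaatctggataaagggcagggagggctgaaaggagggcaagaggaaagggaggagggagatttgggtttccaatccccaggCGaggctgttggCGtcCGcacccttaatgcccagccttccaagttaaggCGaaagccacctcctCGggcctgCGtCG
The Sox11 window held 17 CG dinucleotides, that of Pax6 15 and that of Zeb2 9. That of Nes held 15, of which 14 lie in the bases printed. The median over all 32817 windows of 250 bases was 6. Of all windows, 76.5%, 72.7%, 72.7% and 59.7% held fewer CG than those of Sox11, Pax6, Nes and Zeb2. Windows of genes not shown held 29 (Sox1), 21 (Tubb3), 13 (Meis1) and 7 (Meis2), so CG counts do not set the 4 genes apart. The second Pax6 window held 15 CG, and the 3 Zeb2 windows not shown held 6, 6 and 14, so that a pair of them were at the median. None of the 4 windows shown held ACAAAG or AACAAT (SOX core motifs), CACCTG (the E-box bound by ZEB factors), TGACAG (MEIS) or ATGCAAAT (the POU octamer) on either strand. These were present in 16.5%, 9.42%, 17.2%, 15.9% and 1.6% of all windows, respectively, and their absence says only that these letters are not in these windows. Among the windows not shown, the second of Pax6 held 1 ACAAAG and 1 TGACAG, and 1 of those of Zeb2 held 1 ACAAAG.

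The 9 genes were expressed at very different levels in wild-type cells. Per kilobase of exon, Tubb3 was the highest in wild-type siGLO at 526 ± 165 normalized counts (SD, n = 3), followed by Sox11 at 143 ± 3.20, Nes at 110.1 ± 5.75, Sox1 at 91.1 ± 19.2 and Sox3 at 59.0 ± 9.57. Meis1 at 5.36 ± 0.382, Pax6 at 4.36 ± 1.77, Meis2 at 2.62 ± 1.08 and Zeb2 at 2.04 ± 0.724 formed a low group on the same scale. The replicate ranges of neighbours overlapped between Nes and Sox1 and throughout the low group from Meis1 to Zeb2, so those orders are not resolved. With dual loss the order per kilobase was Tubb3 (684 ± 128), Sox3 (453 ± 41.1), Nes (367 ± 88.1) and Sox11 (342 ± 42.8), and the ranges of Sox3, Nes and Sox11 overlapped from neighbour to neighbour. Sox3 had thus gone from the fifth place to the second, while Meis1, the highest of the low group in wild-type siGLO, was the lowest of the 9 at 10.1 ± 5.80, with a range that overlapped Meis2.

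**Figure D1:**
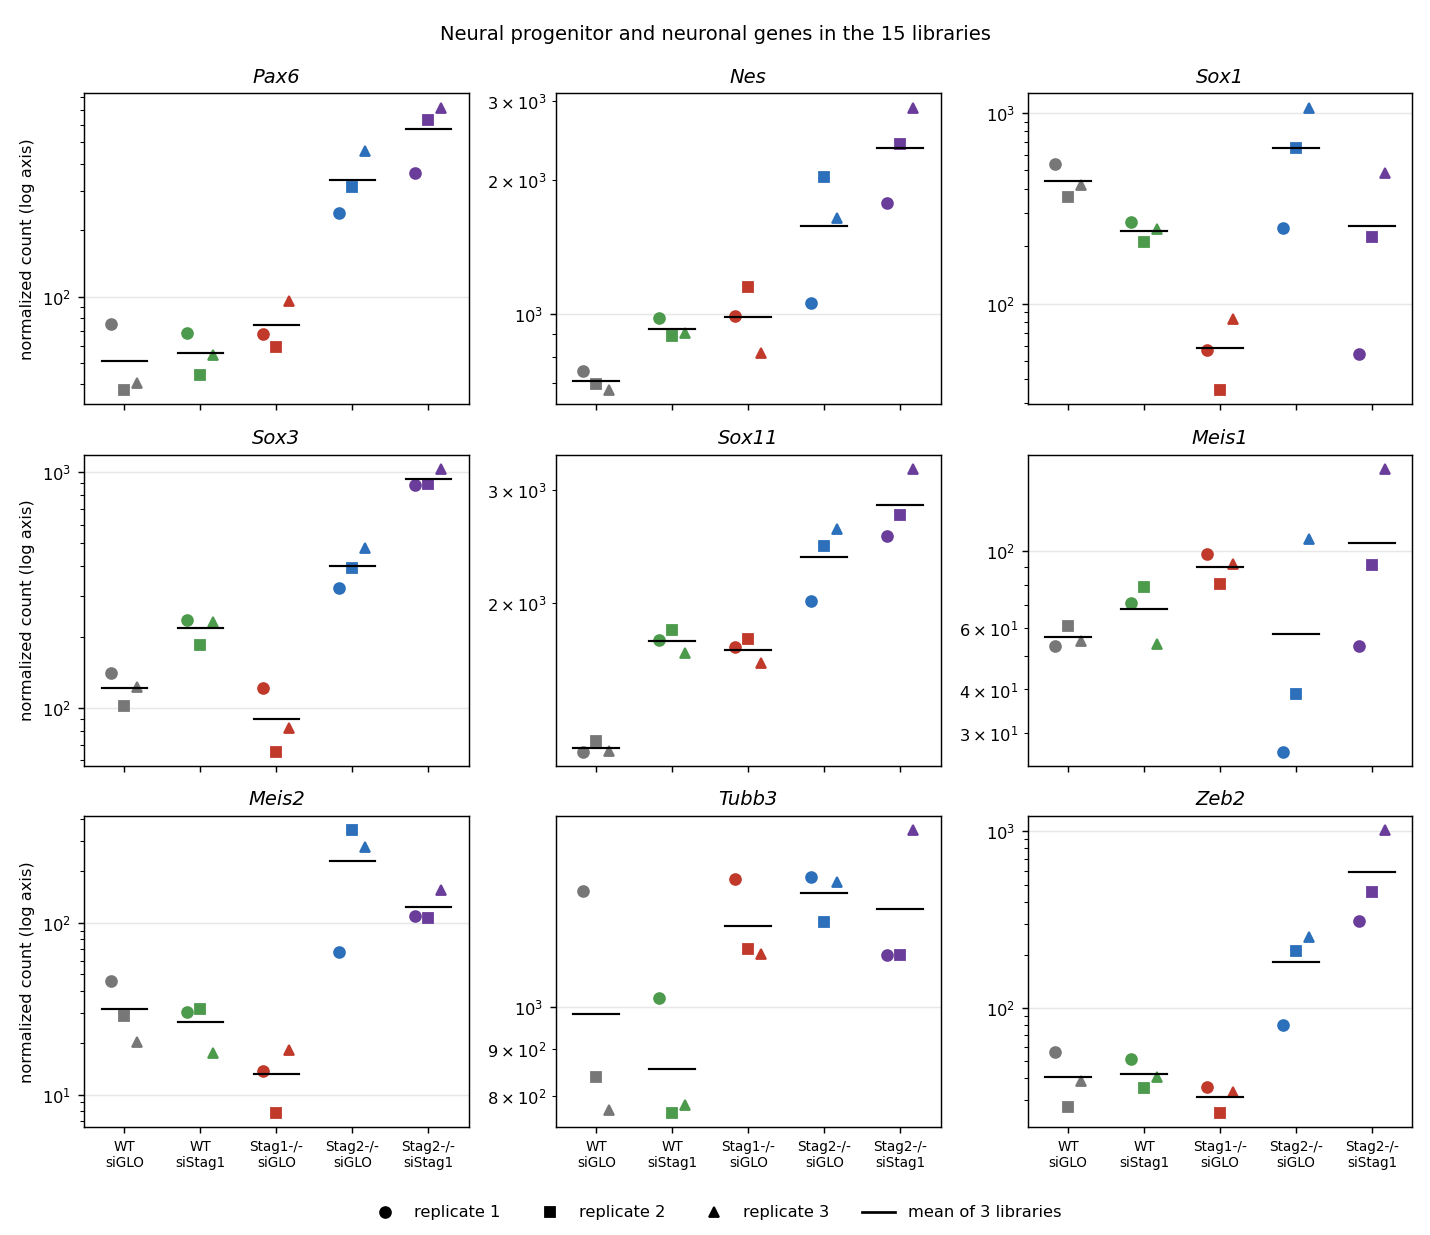
Normalized counts (log axis) of the 9 genes in the 15 libraries, with 1 panel per gene, conditions on the horizontal axis, marker shapes for replicate numbers and a bar at the mean of 3 libraries. Pax6, Nes, Sox3, Sox11, Meis2 and Zeb2 lie above every wild-type siGLO library in all 6 Stag2-/- libraries, while Sox1 spreads widely there and has its lowest mean in Stag1-/- cells.

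Most of the genes were higher in cells lacking STAG2. In Stag2-/- siGLO against wild-type siGLO, 7 of 9 were higher and 0 lower at an adjusted p under 0.1 (edgeR's quasi-likelihood test, Benjamini-Hochberg over all 14508 genes, as for every adjusted p below), and the median log2 fold change of the 9 was 1.15 against 0.0070 for all genes. Of all genes tested, 28.3% were called, 13.9% as higher. The replicate ranges of 6 of the 9 lay wholly above wild-type, which was so of 17.1% of all genes. In bulk RNA, more cells expressing a gene and more RNA per cell cannot be told apart. The study calls its RNA-seq replicates of the 3 genotypes biological and drew those of each knockout from 1 clone, so p-values measure the spread between samples of the same line.

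Pax6 showed a wide separation between the groups. Its normalized counts were 74.8, 37.6 and 40.7 in wild-type siGLO and 240.2, 313 and 455 in Stag2-/- siGLO. All Stag2-/- libraries were well above all wild-type ones, with a log2 fold change of 2.71 ± 0.32 (SE, 6.54-fold, adjusted p = 3.70e-05).

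Nes, which encodes nestin, had 747, 698 and 675 normalized counts in wild-type siGLO and 1057, 2026 and 1639 in Stag2-/- siGLO. The groups did not overlap, although replicate 1 of the knockout was far below the other two (log2 fold change 1.15 ± 0.20, adjusted p = 8.63e-04).

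Among the SOX genes, Sox3 rose from 141, 102 and 123 normalized counts in wild-type siGLO to 324, 393 and 479 in Stag2-/- siGLO. The lowest knockout library was over the highest wild-type library by a wide margin (log2 fold change 1.71 ± 0.20, adjusted p = 3.31e-05). Sox11 went from 1173, 1221 and 1177 to 2018, 2459 and 2609, again with no overlap (log2 fold change 0.99 ± 0.10, adjusted p = 1.02e-05). Sox1 did not pass the test, with 542, 361 and 417 in wild-type siGLO and 248, 655 and 1067 in Stag2-/- siGLO. Replicate 1 of the knockout was below every wild-type library and the other two were above them, so that the log2 fold change of 0.58 ± 0.52 (adjusted p = 0.465) averages libraries that differ in direction. Compared within replicate numbers, the log2 ratio of Sox1 was -1.13, 0.86 and 1.36 for numbers 1, 2 and 3. Without replicate 1 of every condition Sox1 was called as higher (1.13, adjusted p = 0.0141).

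Zeb2 had 56.1, 27.5 and 38.7 normalized counts in wild-type siGLO and 80.4, 211 and 253 in Stag2-/- siGLO. The ranges did not overlap, with replicate 1 of the knockout closest to wild type (log2 fold change 2.15 ± 0.45, adjusted p = 0.0035). Without replicate 2 of every condition, the fit on 10 libraries gave 1.81 with an adjusted p of 0.162.

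Of the MEIS genes, Meis2 was called and Meis1 was not. Meis2 had 45.8, 28.5 and 20.3 normalized counts in wild-type siGLO and 67.7, 345 and 276 in Stag2-/- siGLO, where replicate 1 again stood lowest (log2 fold change 2.85 ± 0.47, 7.23-fold, adjusted p = 5.97e-04). Meis1 had 53.3, 61.0 and 55.2 against 26.5, 38.8 and 109, so that 2 knockout libraries were below and 1 was above the whole wild-type range (log2 fold change 0.04 ± 0.44, adjusted p = 0.959). The value for Meis1 turned to -0.79 when replicate 3 of Stag2-/- siGLO was left out and to -0.06 with replicate numbers as a block, without being called in either fit.

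Tubb3, the neuronal beta-tubulin, gave 1336, 838 and 772 normalized counts in wild-type siGLO and 1384, 1237 and 1365 in Stag2-/- siGLO. Replicate 1 of wild type lay within the knockout range, and the log2 fold change of 0.44 ± 0.18 was at the edge of the threshold (adjusted p = 0.0999). The call was lost when only the 6 libraries compared were fitted (adjusted p = 0.138), and without replicate 3 of wild-type siGLO the value was 0.29 (adjusted p = 0.343). It was lost without 11 of the 15 single libraries, the exceptions being replicate 1 of wild-type siGLO, of wild-type siStag1 and of Stag2-/- siStag1 and replicate 3 of Stag2-/- siStag1. Over the 706 other genes tested on chromosome 8, where Tubb3 and Sox1 lie, the median log2 fold change was -0.21 in this comparison. Relative to it, Tubb3 was higher by 0.64 and Sox1 by 0.78 on the log2 scale.

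**Figure D2:**
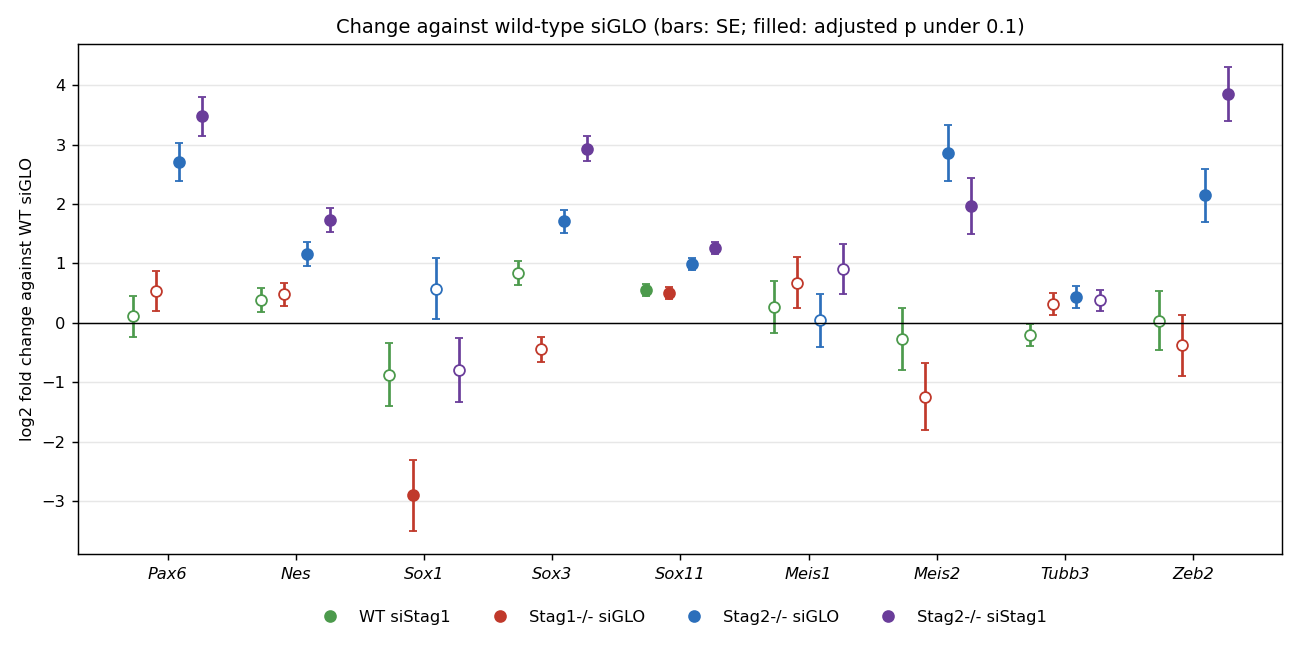
Log2 fold change of each gene against wild-type siGLO (vertical axis) in the 4 other conditions, with bars for the SE and filled points for an adjusted p under 0.1. Pax6, Sox3, Meis2 and Zeb2 reach 1.71 to 3.85 in the Stag2-/- conditions, and Sox1 is at -2.90 in Stag1-/- siGLO.

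Fewer of the 9 genes were called in cells lacking STAG1. In Stag1-/- siGLO against wild-type siGLO, Sox11 was higher and Sox1 lower, 2 of 9 genes called, against 20.0% of all genes (10.1% higher and 9.93% lower). This share is near that of genes in general in the fit of 15 libraries, but it depended on the fit. With only the 6 libraries compared 5 of 9 were called, against 2832 of 13841 genes, and with DESeq2 4 of 9, against 3115 of 16128 genes. Sox1 fell from 542, 361 and 417 normalized counts to 57.1, 35.0 and 83.2. Every Stag1-/- library was far below every wild-type library (log2 fold change -2.90 ± 0.60, 7.49-fold lower, adjusted p = 0.0040). The median over the other genes tested on chromosome 8 was -0.19 here, and the value relative to it was -2.71 for Sox1 and 0.51 for Tubb3. Sox11 went from 1173, 1221 and 1177 to 1707, 1757 and 1613 (log2 fold change 0.51 ± 0.10, adjusted p = 0.0030), with no overlap between the groups. Both calls were lost in the fit without replicate 2 of every condition, where Sox1 had -2.77 (adjusted p = 0.150) and Sox11 had 0.50 (adjusted p = 0.138).

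The other 7 genes did not pass the test in Stag1-/- cells. Nes had 991, 1147 and 817 normalized counts, all above wild-type siGLO (log2 fold change 0.48 ± 0.20, adjusted p = 0.127). With replicate numbers as a block it was called, at 0.47 (adjusted p = 0.0675). Meis2 had 13.8, 7.79 and 18.1, all below wild-type siGLO (-1.24 ± 0.57, adjusted p = 0.163), and Meis1 had 98.4, 80.8 and 92.2, all above it (0.68 ± 0.43, adjusted p = 0.331). Meis2 was called as lower by DESeq2 (adjusted p = 0.0829) and with only the 6 libraries compared (adjusted p = 0.0556). Nes was called as higher in the same fits (adjusted p = 0.0917 and 0.0217), and Meis1 with only those libraries (adjusted p = 0.0422). Sox3 (-0.44 ± 0.21), Pax6 (0.54 ± 0.34), Tubb3 (0.32 ± 0.18) and Zeb2 (-0.38 ± 0.51) overlapped with wild type. Within replicate numbers 1, 2 and 3, however, the log2 ratio kept one sign for Sox3 (-0.21, -0.64 and -0.58), Zeb2 (-0.66, -0.12 and -0.21) and Tubb3 (0.044, 0.46 and 0.56), though none of these was called with the block.

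Some of these genes were called in Stag1-/- cells once libraries were left out. Tubb3 was higher without replicate 1 of wild-type siGLO (0.60, adjusted p = 0.0222), and Sox3 was lower without replicate 1 of Stag1-/- siGLO (-0.72, adjusted p = 0.0411). Nes was called without replicate 3 of Stag1-/- siGLO (0.60, adjusted p = 0.0875), and also without replicate 1 or 2 of Stag2-/- siGLO or replicate 1 of Stag2-/- siStag1, none of which is in the comparison. Meis2 was called without replicate 1 of Stag2-/- siGLO (-1.24, adjusted p = 0.0295). Without replicate 1 of every condition, Pax6 was called as higher (0.98, adjusted p = 0.0314), as were Nes and Tubb3, and Sox3 as lower.

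The 2 knockout lines were also compared directly, which asks whether the genes differ between loss of one STAG subunit and loss of the other. In Stag2-/- siGLO against Stag1-/- siGLO, 7 of 9 genes were higher and 0 lower, against 25.7% of all genes called and 12.9% called higher. Meis2 differed by 4.10 ± 0.52 on the log2 scale (17.1-fold, adjusted p = 7.85e-05), and Sox1 by 3.48 ± 0.61 (11.2-fold, adjusted p = 9.40e-04). The Stag1-/- ranges of both genes lay wholly below those of Stag2-/- cells. Zeb2 (2.53 ± 0.46, adjusted p = 0.0014), Pax6 (2.17 ± 0.31, adjusted p = 2.05e-04) and Sox3 (2.15 ± 0.21, adjusted p = 6.67e-06) were higher as well. Sox11 and Nes differed less, by 0.48 ± 0.10 (adjusted p = 0.0036) and 0.68 ± 0.20 (adjusted p = 0.0264). The call of Nes was lost without replicate 2 of Stag2-/- siGLO (0.45, adjusted p = 0.145), and without replicate 2 of every condition Sox11, Nes and Zeb2 were all lost, leaving 4 called. Tubb3 differed by 0.12 ± 0.18 and Meis1 by -0.64 ± 0.43, neither past the test. Without replicate 3 of Stag2-/- siGLO, Meis1 was called as lower in Stag2-/- cells (-1.47, adjusted p = 0.0234).

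After depletion of STAG1 by siRNA in wild-type cells, Sox11 alone of the 9 genes passed the test in the fit of 15 libraries. In wild-type siStag1 against wild-type siGLO, 1 of 9 was called, against 0.248% of all genes (36 genes). That background itself rests on single libraries, since 1 to 57 genes were called over the fits without 1 library, the fewest without replicate 2 of wild-type siStag1. Sox11 had 1751, 1814 and 1673 normalized counts against 1173, 1221 and 1177 (log2 fold change 0.55 ± 0.10, adjusted p = 0.0379). All 3 depleted libraries were above all 3 controls, but leaving out any 1 of these 6 libraries took the call away while the value stayed at 0.52 to 0.59. Sox3 was next, with 235, 186 and 232 against 141, 102 and 123 (0.83 ± 0.20, adjusted p = 0.175). It also showed no overlap and was called with replicate numbers as a block (0.83, adjusted p = 0.0348), where 1.63% of all genes were called. It was called too without replicate 1 of Stag1-/- siGLO (0.83, adjusted p = 0.0969), and by DESeq2 (adjusted p = 0.0126). Sox1 went the other way, with 267, 209.7 and 247 against 542, 361 and 417 (-0.87 ± 0.54, adjusted p = 0.943), all 3 depleted libraries being below all 3 controls. Nes was at 978, 892 and 907, all above the controls (0.39 ± 0.20, adjusted p = 0.834). With only the 6 libraries compared in the fit, Sox1 was called as lower (adjusted p = 0.0626), and Nes (adjusted p = 0.0898) and Sox3 (adjusted p = 0.0740) as higher. Replicate ranges lay wholly above the controls for 3 of the 9 genes, Nes, Sox3 and Sox11, against 7.45% of all genes. The remaining 5 genes overlapped with the controls, with log2 fold changes between -0.27 (Meis2) and 0.27 (Meis1).

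The dual loss condition held the highest mean level of 6 of the 9 genes. In Stag2-/- siStag1 against wild-type siGLO, 6 of 9 were higher and 0 lower, against 43.9% of all genes called and 22.6% called higher, and the median log2 fold change of the 9 was 1.74. Zeb2 had 310.5, 454 and 1013 normalized counts, all far above the 56.1, 27.5 and 38.7 of wild-type siGLO (3.85 ± 0.45, 14.4-fold, adjusted p = 9.30e-06). Pax6 had 364, 633 and 719 (3.48 ± 0.33, 11.1-fold, adjusted p = 8.68e-07), and Sox3 had 879, 892 and 1032 (2.94 ± 0.20, 7.65-fold, adjusted p = 4.75e-08). For both of these the groups were far apart. Nes had 1772, 2398 and 2900.2 (1.74 ± 0.20, adjusted p = 8.24e-06), and Sox11 had 2549, 2746 and 3240.0 (1.26 ± 0.10, adjusted p = 2.03e-07). Meis2 had 109, 107 and 155 (1.96 ± 0.47, adjusted p = 0.0040), below 2 of the 3 Stag2-/- siGLO libraries but above all wild-type ones. Sox1 had 54.2, 225 and 483 (-0.79 ± 0.53, adjusted p = 0.263), from far below wild type to within its range. Without replicate 3 of Stag2-/- siStag1, Sox1 was called as lower (-1.66, adjusted p = 0.0304). Meis1 had 53.2, 91.5 and 173 (0.91 ± 0.43, adjusted p = 0.111) and Tubb3 had 1139, 1138 and 1554 (0.38 ± 0.18, adjusted p = 0.115), and neither passed the test. Tubb3 was called as higher without replicate 1 of wild-type siGLO (0.66, adjusted p = 0.0044) or replicate 1 of Stag2-/- siStag1 (0.45, adjusted p = 0.0835). Meis1 was called as higher by DESeq2 (0.90, adjusted p = 0.0940), without replicate 1 of Stag2-/- siStag1 (1.23, adjusted p = 0.0260), and without replicate 1 or 3 of Stag2-/- siGLO (0.90 in both). The median over the other genes tested on chromosome 8 was -0.22 with dual loss, and relative to it Tubb3 was at 0.60 and Sox1 at -0.57.

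To separate the effect of STAG1 depletion from that of the knockout it was applied to, Stag2-/- siStag1 was compared with Stag2-/- siGLO. Sox3 and Zeb2 were higher, 2 of 9 genes, against 6.37% of all genes called and 2.98% called higher. Sox3 rose from 324, 393 and 479 normalized counts to 879, 892 and 1032 (1.23 ± 0.19, 2.34-fold, adjusted p = 0.0012), with a clear gap between the groups. Zeb2 rose from 80.4, 211 and 253 to 310.5, 454 and 1013 (1.70 ± 0.40, adjusted p = 0.0232). Without replicate 3 of Stag2-/- siStag1, which holds the highest value, Zeb2 was not called (1.07, adjusted p = 0.175), nor was it when only the 6 libraries compared were fitted (1.69, adjusted p = 0.220).

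Libraries with the same replicate number deviated together in these 2 conditions, and with the numbers as a block 6 of the 9 genes were called, against 14.1% of all genes. These were Sox3 and Zeb2 together with Pax6 (0.78, adjusted p = 0.0527), Nes (0.59, adjusted p = 0.0386) and Sox11 (0.27, adjusted p = 0.0631) as higher and Sox1 (-1.42, adjusted p = 0.0479) as lower. Within replicate numbers 1, 2 and 3 the log2 ratio of Sox1 was -2.19, -1.54 and -1.14. Its values were 54.2, 225 and 483 against 248, 655 and 1067, which overlap between the groups but not within a number. Without replicate 1 of every condition, Meis2 was also called as lower (-1.25, adjusted p = 0.0128). In the fit of all 15 libraries it had -0.89 ± 0.42 (adjusted p = 0.302). Its log2 ratio within numbers 1, 2 and 3 was 0.69, -1.69 and -0.83, so the number left out was the one that went the other way.

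Single libraries also decided calls between these 2 conditions. Without replicate 1 of Stag2-/- siGLO, Sox1 (-1.76, adjusted p = 0.0611) and Meis2 (-1.33, adjusted p = 0.0153) were lower. Without its replicate 2, Nes was higher (0.81, adjusted p = 0.0457), and without its replicate 3, Pax6 (1.05, adjusted p = 0.0823) and Meis1 (1.69, adjusted p = 0.0319) were. Leaving out replicate 1 of Stag2-/- siStag1 added Pax6 (1.01), Nes (0.75), Sox11 (0.34) and Meis1 (1.19) as higher, and leaving out its replicate 3 added Sox1 as lower (-2.24, adjusted p = 0.0511).

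The effect of losing STAG2 was measured a second time in cells given siStag1. In Stag2-/- siStag1 against wild-type siStag1, a comparison that shares no library with Stag2-/- siGLO against wild-type siGLO, 7 of 9 genes were higher and 0 lower, against 37.5% of all genes called and 19.4% called higher. The same 7 genes were called higher in both comparisons (Pax6, Nes, Sox3, Sox11, Meis2, Tubb3 and Zeb2), which was so of 10.8% of all genes. The log2 fold change was 3.81 ± 0.45 for Zeb2, 3.37 ± 0.32 for Pax6, 2.23 ± 0.48 for Meis2, 2.10 ± 0.19 for Sox3, 1.35 ± 0.20 for Nes, 0.70 ± 0.10 for Sox11 and 0.58 ± 0.18 for Tubb3. The adjusted p of these ranged from 1.34e-06 for Sox3 to 0.0246 for Tubb3. Tubb3 lost its call without replicate 2 of wild-type siStag1 (0.50, adjusted p = 0.101) or replicate 3 of Stag2-/- siStag1 (0.41, adjusted p = 0.129), and Meis1 was called as higher without replicate 1 of Stag2-/- siStag1 (0.96, adjusted p = 0.0843). The chromosome 8 median was -0.22 here too, and relative to it Tubb3 was at 0.80 and Sox1 at 0.30. Both comparisons use the same Stag2-/- clone, so they are not separate knockouts. Stag1 RNA also differed here, being 1.57-fold higher in Stag2-/- siStag1 than in wild-type siStag1 (0.65 ± 0.14 on the log2 scale, adjusted p = 0.0023), so the 2 conditions differ in Stag1 RNA as well as in STAG2, and the effects of these cannot be told apart.

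Whether the effect of losing STAG2 differed between siGLO and siStag1 was tested as an interaction, in which the unequal Stag1 RNA of the siStag1 conditions also enters. None of the 9 genes was called by edgeR (0 of 9, against 0.159% of all genes) or by DESeq2 (0 of 9), and 1 of 9 had an unadjusted p under 0.05 in edgeR, against 842 of 14508 genes. That gene was Zeb2, with a difference of 1.67 ± 0.63 on the log2 scale (unadjusted p = 0.0178, adjusted p = 0.638). The others ranged from -0.62 ± 0.67 (Meis2) to 0.66 ± 0.45 (Pax6). Missing the threshold does not show that the effects were equal.

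**Figure D3:**
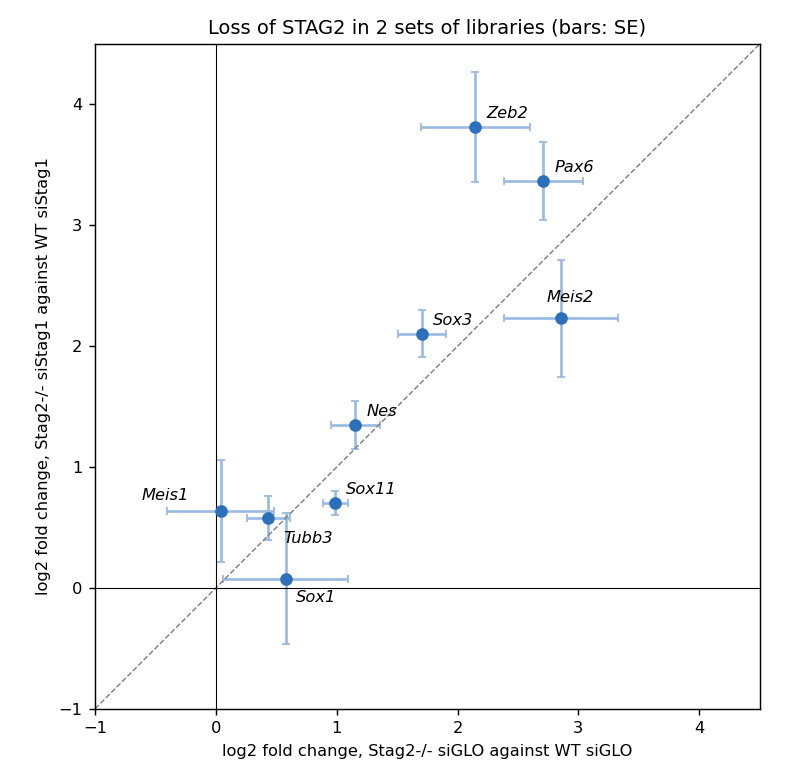
Log2 fold change on loss of STAG2 in siGLO cells (horizontal axis) and in siStag1 cells (vertical axis), with 1 point per gene, bars for the SE and a dashed line of equality. Pax6, Sox3 and Zeb2 lie above the line and Meis2 below it, with Zeb2 the farthest at 2.15 and 3.81.

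The spread between replicates was itself unequal. In Stag2-/- siStag1, replicate 3 was the highest of the 3 libraries for 9 of 9 genes and replicate 1 the lowest for 7. Replicate 1 of Stag2-/- siGLO was the lowest for 8 and its replicate 3 the highest for 6. In wild-type siGLO it was replicate 1 that was the highest, for 7 of 9. The ratio of the highest to the lowest library reached 8.92 for Sox1 in Stag2-/- siStag1 and 5.09 for Meis2 in Stag2-/- siGLO, against at most 2.37 in the 3 conditions with intact Stag2. Once the mean of each condition was removed, Sox1 and Zeb2 went together over the 15 libraries (Pearson's r = 0.90 of log2 CPM), as did Sox11 and Meis1 (r = 0.87) and Sox1 and Pax6 (r = 0.84). With condition means left in, Pax6 and Zeb2 had r = 0.95, Nes and Sox11 had 0.95, and Sox1 and Nes had 0.13. These correlations describe libraries that share 5 conditions and replicate numbers.

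The gene most like each member over the 15 libraries, by Pearson's r of log2 CPM among 11528 other genes, was named as a description. It was Usp26 for Pax6 (r = 0.98), Zfp618 for Nes (0.98), Frat1 for Sox1 (0.91), Lef1 for Sox3 (0.97), Fign for Sox11 (0.97), Apeh for Meis1 (0.89), Pafah1b2 for Meis2 (0.95), 2700081O15Rik for Tubb3 (0.92) and Zmiz1 for Zeb2 (0.98). The next in rank were Mup6 and Zfhx4 for Pax6, Setd7 and Pbx3 for Nes, Kit and Prrc1 for Sox1, Mdk and Bcl11a for Sox3, and Efnb2 and Lrrk2 for Sox11. For Meis1 they were Cacna2d2 and Stx2, for Meis2 Cachd1 and Zic2, for Tubb3 Actn3 and Gmeb1, and for Zeb2 Fbn2 and Mfap4. Lef1, the best match of Sox3, encodes a nuclear effector of WNT signalling, and Zic2, the third match of Meis2, encodes a zinc-finger factor of the neural plate.

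Other genes of the same lineage were read from a list of 48 neural progenitor genes, of which 38 were tested. In Stag2-/- siGLO against wild-type siGLO, 15 were higher and 2 lower, with a median log2 fold change of 0.76 against 0.0070 for all genes, where 13.9% of all genes were called higher and 28.3% in either direction. En1, a homeobox gene of the midbrain and hindbrain, was at 3.70 ± 0.59 (adjusted p = 4.34e-04), Zic2 at 2.21 ± 0.24 (adjusted p = 1.39e-05), Cdh2, which encodes N-cadherin, at 1.87 ± 0.25 (adjusted p = 1.14e-04), and Pou3f1, a POU factor of epiblast and early neural cells, at 1.69 ± 0.25 (adjusted p = 2.53e-04). With dual loss, against wild-type siGLO, 23 were higher and 5 lower (median 0.86), against 43.9% of all genes called, among them Zic2 (2.20 ± 0.24), Cdh2 (2.14 ± 0.25), Pou3f1 (2.05 ± 0.25) and Prom1 (1.75 ± 0.44). In Stag1-/- siGLO the list split evenly, with 4 higher and 5 lower (median -0.07), a share near the 20.0% of all genes called. There Pou3f1 (1.67 ± 0.25) and Prom1 (1.28 ± 0.44) rose and Vim, which encodes vimentin (-1.04 ± 0.16), and En2 (-0.87 ± 0.23) fell. In wild-type siStag1 none of the 38 was called. Between Stag2-/- siStag1 and Stag2-/- siGLO, 1 was higher and 4 were lower, against 6.37% of all genes called.

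Of 41 genes of neurons, 34 were tested. The list had 11 higher and 2 lower in Stag2-/- siGLO (median 0.34), 14 higher and 5 lower in Stag2-/- siStag1 (0.33), 9 higher and 3 lower in Stag1-/- siGLO (0.18), and none called in wild-type siStag1 (0.07), each against wild-type siGLO. The shares of all genes called in these comparisons were 28.3%, 43.9%, 20.0% and 0.248%, in the same order. Crmp1, a regulator of axon growth, rose in both Stag2-/- conditions (1.22 ± 0.13 and 1.49 ± 0.13), as did Tubb4a, a brain beta-tubulin (1.53 ± 0.38 and 2.28 ± 0.38). Mapt, which encodes tau, fell in both (-1.19 ± 0.22 and -2.55 ± 0.23). Nefm, which encodes a neurofilament subunit, rose with dual loss (1.28 ± 0.45). Ina, which encodes the neurofilament protein internexin, rose in Stag1-/- siGLO (1.11 ± 0.18) and in Stag2-/- siGLO (0.90 ± 0.18), while Stmn3 fell (-1.39 ± 0.29) and Syp (1.02 ± 0.24) and Elavl3 (0.82 ± 0.24) rose in Stag1-/- siGLO. The 7 genes that were too low to test included Dcx, Neurog2, Neurod4 and Myt1, which act in newly born neurons.

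**Figure D4:**
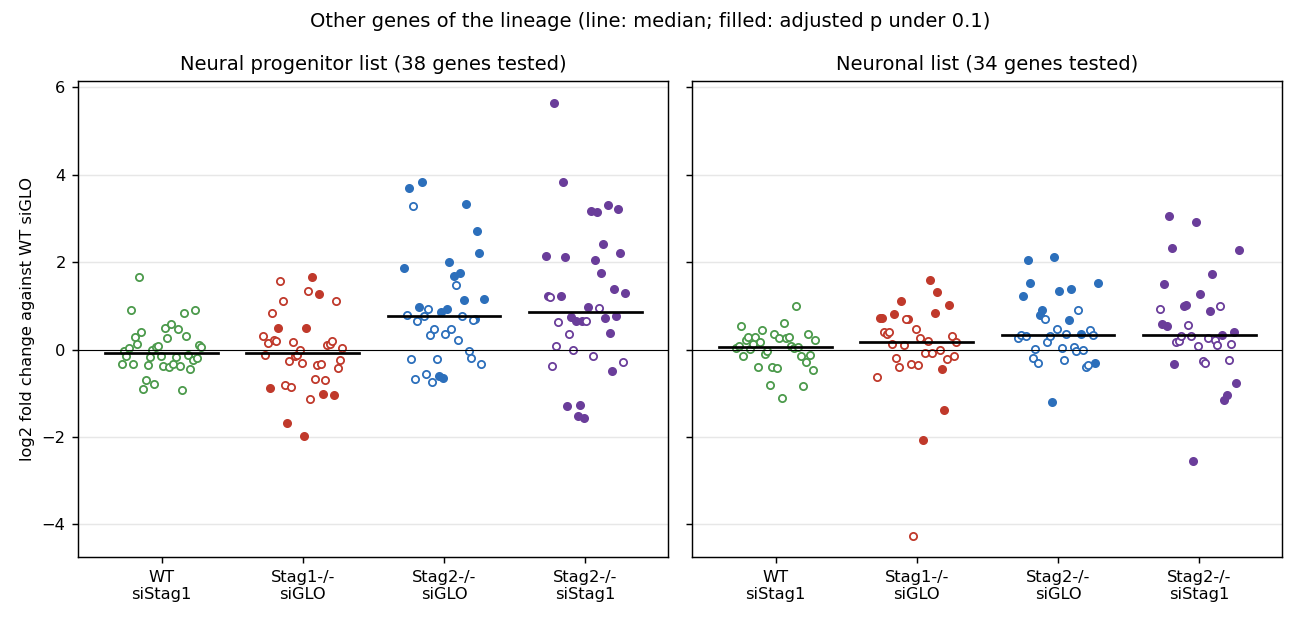
Log2 fold change against wild-type siGLO (vertical axis) of the 38 neural progenitor and 34 neuronal genes tested, with 1 point per gene, a line at the median and filled points for an adjusted p under 0.1. The medians of the progenitor list are 0.76 and 0.86 in the Stag2-/- conditions and -0.07 in both others.

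Paralogues and protein partners of the 9 genes were read from another list, of which 24 of 31 were tested. Of these, 11 were higher and 4 lower in Stag2-/- siGLO, 13 and 5 with dual loss and 4 and 2 in Stag1-/- siGLO, and none was called in wild-type siStag1. Of all genes, 28.3%, 43.9% and 20.0% were called in the first 3 of these, so the count in Stag1-/- cells is near the background. Meis3 (1.31 ± 0.41) and Sox21, a SOXB2 gene (1.39 ± 0.42), rose with dual loss. Zeb1, the paralogue of Zeb2, fell in Stag1-/- siGLO (-1.03 ± 0.18), where the beta-tubulin gene Tubb6 rose (0.72 ± 0.10). Des, which encodes the muscle filament protein desmin, fell in Stag2-/- siGLO (-1.11 ± 0.13).

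Markers of other cell states were counted in the same conditions, where the share of all genes called was 43.9% with dual loss, 28.3% in Stag2-/- siGLO, 20.0% in Stag1-/- siGLO and 0.248% in the depleted wild-type cells. Of 8 pluripotency genes, none was higher and 3 were lower in Stag1-/- siGLO, 5 in Stag2-/- siGLO, 1 in wild-type siStag1 and 8 with dual loss. Their summed level was 62465 to 68307 normalized counts in wild-type siGLO and 28211 to 31178 with dual loss. It also lay wholly below wild-type siGLO in wild-type siStag1 (52888 to 54047), Stag1-/- siGLO (50026 to 56700) and Stag2-/- siGLO (48062 to 52365). Of 6 primed epiblast genes, of which Otx2 and Pou3f1 also stand in the progenitor list, 6 were higher in each Stag2-/- condition and 3 in Stag1-/- siGLO. The summed level of these genes was 9836 to 13958 in wild-type siGLO, 13302 to 18173 in wild-type siStag1 and 15026 to 20653 in Stag1-/- siGLO. It was 22164 to 31168 in Stag2-/- siGLO and 28119 to 40218 with dual loss. Of 8 endoderm genes, 8 were lower in each of the 3 knockout conditions, with sums of 17509 to 18101 in wild-type siGLO, 16390 to 17252 in wild-type siStag1, 2085 to 3039 in Stag1-/- siGLO, 2473 to 4263 in Stag2-/- siGLO and 2909 to 4256 with dual loss. The part of these states in the levels of the 9 genes was not tested.

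Markers of other lineages are to be read against the same shares, with 13.9% of all genes called higher in Stag2-/- siGLO and 22.6% with dual loss. Genes of the primitive streak and mesoderm had 5 of 13 tested higher and 2 lower in Stag2-/- siGLO, and 4 higher and 3 lower with dual loss. Their summed level was 380 to 507 in wild-type siGLO and 478, 745 and 1865 in the libraries of Stag2-/- siGLO, but 382 to 524 with dual loss, where the median log2 fold change of the list was -0.57 against 0.80 in Stag2-/- siGLO. The gene Msgn1 was too low to test, and it was at 0 in all libraries of the 3 conditions with intact Stag2. Neural crest genes, a lineage in which Zeb2 and Sox11 also act, had 2 of 7 tested higher in each Stag2-/- condition and 1 lower in Stag1-/- siGLO, with sums of 554 to 874 in wild-type siGLO and 774 to 1412 in Stag2-/- siGLO. Tfap2b, which marks neural crest, was at 0 in all libraries of the 3 conditions with intact Stag2. It was too low to test, so this does not show a difference between conditions. Of 4 fibroblast genes tested, 1 was higher in each Stag2-/- condition, and the summed level over 7 genes was 295 to 553 in wild-type siGLO, 327 to 646 in Stag2-/- siGLO and 385 to 448 with dual loss. The part of these lineages was not tested either.

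**Figure D5:**
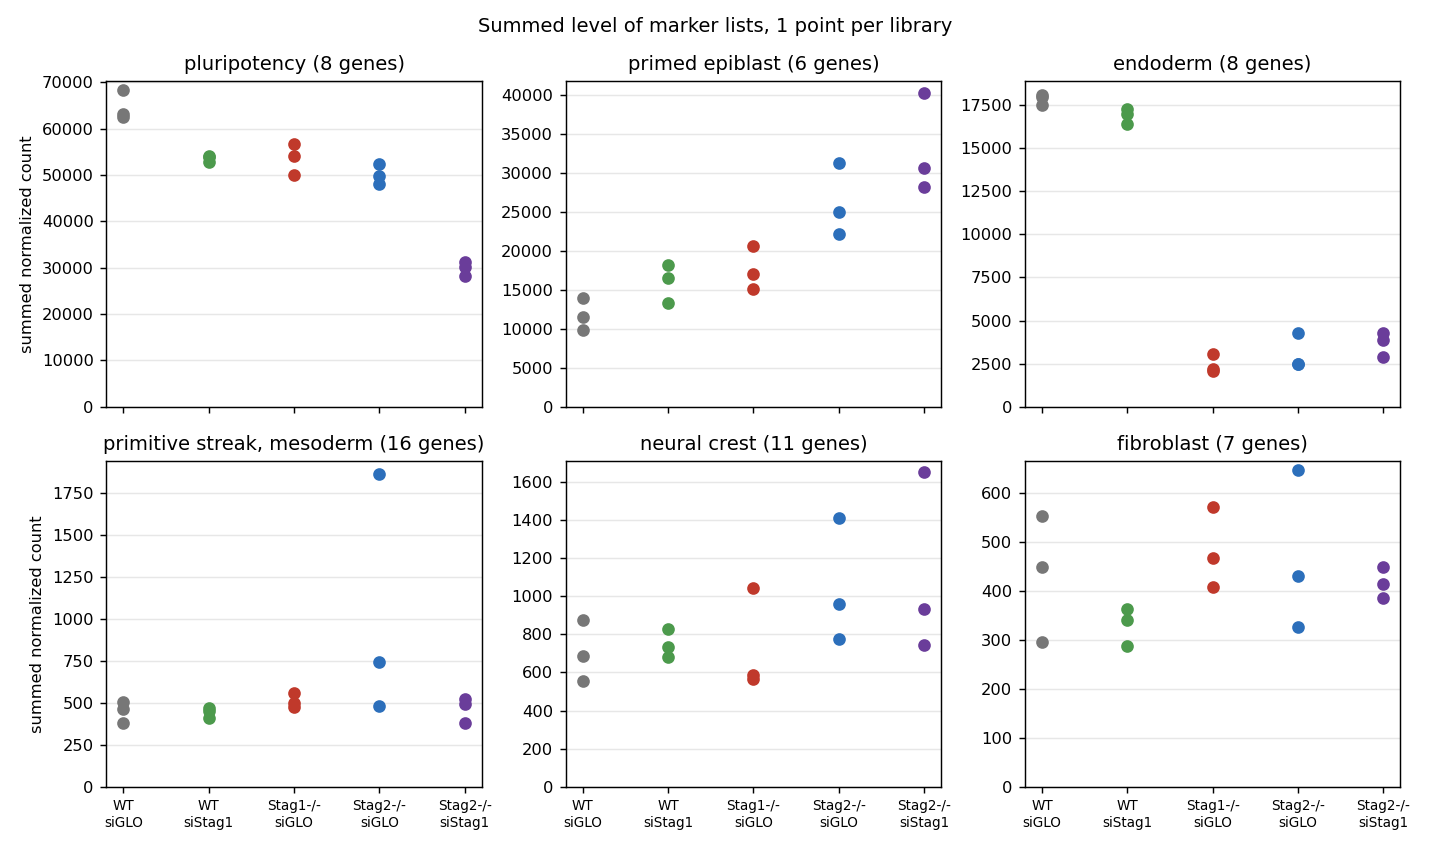
Summed normalized counts of 6 marker lists (vertical axis) in the 15 libraries, 1 point per library, by condition. Endoderm markers sit at 16390 to 18101 in the wild-type libraries and at 2085 to 4263 in the knockout libraries, and pluripotency markers are lowest with dual loss.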

How the data were processed

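RNA-seq was performed in 15 libraries of v6.5 mouse embryonic stem cells, 3 for each of 5 conditions. Per the study's methods and labels, poly-A RNA was sequenced as paired 150-bp reads and aligned to mm10 with STAR, and the authors deposited raw read counts per gene. The counting tool, annotation and strand setting are not given in the sources used here. Counts on genes were 14982560 to 19070126 per library, so that 3 counts, a reference level that no filter or test used, are 0.157 to 0.200 CPM. The 4 rows of unassigned reads stayed out of library sizes. Positions came from GENCODE M21 by symbol.

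Differential expression was tested with edgeR 4.0.16 in R 4.3.3: filterByExpr (minimum count 10, minimum total 15), TMM scaling, 1 coefficient per condition over all 15 libraries, glmQLFit and glmQLFTest, and Benjamini-Hochberg adjustment over 14508 genes, with a call at an adjusted p under 0.1. The procedure was first tested on simulated data. Alternatives were DESeq2 1.42.0, its size factors, library size alone, other filters, a threshold of 0.05, fits of only the libraries compared, single libraries left out, and replicate numbers as a block. Leaving out all libraries of 1 replicate number was chosen after seeing the data. The 9 genes, the lists and the tests were chosen with earlier results of these data known. From each list and each comparison with wild-type siGLO, up to 4 called genes with the largest fold change, a mean of at least 50 normalized counts and no overlap between groups were eligible to be named, and for each member the 3 genes with the highest Pearson's r.

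Same-numbered libraries of different conditions deviated together over 11529 genes (30 pairs, mean r = 0.31, 27 above 0.1). The mean for 60 pairs of different numbers was -0.15. Deviations from a condition mean cancel out within the condition, so this value largely follows from the first and is no separate background. Every pair was above 0.1 in 5 of the 8 comparisons, the exceptions being Stag2-/- siStag1 against wild-type siGLO, the same against wild-type siStag1, and the interaction. The pairing comes from the data and not from a stated batch or day, and blocked values stand beside results only in those 5 comparisons. Libraries of 1 condition differed by more than sampling noise (chi-square per degree of freedom of 4.52 or more), so none was counted as a copy. The values of 1 gene of the list of paralogues and partners are not reported here.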

Additional observations from a re-analysis of the deposited data

How the results depend on the processing

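The number of the 9 genes called changed with some settings. In Stag1-/- siGLO against wild-type siGLO it was 2, but 4 with DESeq2 (against 3115 of 16128 genes). It was 5 with only the libraries compared (against 2832 of 13841). With libraries left out it was 0 to 6, while 690 to 3259 of all genes were called. In wild-type siStag1 it was 1, but 2 with the replicate block (against 236 of 14508 genes) and 2 with DESeq2 (against 133 of 14259). It was 4 with only the libraries compared (against 126 of 13869). With libraries left out it was 0 to 2, while 1 to 65 of all genes were called. In Stag2-/- siStag1 against Stag2-/- siGLO it was 2, but 3 with DESeq2 (against 1191 of 14633 genes), which added Nes (adjusted p = 0.0639). It was 6 with the block (against 2049 of 14508) and 1 with only the libraries compared (against 224 of 13916). With libraries left out it was 1 to 6, while 100 to 1484 of all genes were called. In Stag2-/- siGLO against wild-type siGLO it was 5 to 8 with libraries left out, against 732 to 5028 of all genes. In Stag2-/- siStag1 against wild-type siGLO it was 6, but 7 with DESeq2 (against 6491 of 16502 genes), which added Meis1. With libraries left out it was 6 to 8 there, against 3302 to 6823 genes. In the same fits it was 6 to 8 in Stag2-/- siStag1 against wild-type siStag1, against 2354 to 5997 genes. Between the knockouts it was 4 to 8, against 671 to 4142 genes, and for the interaction 0 to 0, against 0 to 95. Under DESeq2 size factors all 72 fold changes of the 9 genes kept their direction and side of the threshold. Meis2 failed a filter of 10 counts in every library and has no value there. In Stag2-/- siStag1 against wild-type siGLO, where numbers did not pair every library, the block added Sox1 (-1.04), Meis1 (0.81) and Tubb3 (0.41). The paired fit changed no other call than those given here and beside the results. The cause of these changes was not tested.

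Changes of sign befell only values that were not called in the fit of 15 libraries. With the block, Meis1 in Stag2-/- siGLO was -0.063 and Sox1 in Stag2-/- siStag1 against wild-type siStag1 was -0.12. Without single libraries, Meis1 ranged from -0.79 to 0.39 in Stag2-/- siGLO. In wild-type siStag1, Meis2 ranged from -0.50 to 0.11, Tubb3 from -0.35 to 0.088, Pax6 from -0.065 to 0.50 and Zeb2 from -0.18 to 0.34. Between Stag2-/- siStag1 and Stag2-/- siGLO, Tubb3 ranged from -0.22 to 0.019, and against wild-type siStag1 Sox1 ranged from -0.79 to 0.56. In the interaction, Tubb3 ranged from -0.15 to 0.29, Nes from -0.026 to 0.42 and Sox1 from -1.37 to 0.040. Leaving out all libraries of 1 replicate number also changed the sign in Stag2-/- siGLO (without number 3, Meis1 -0.81 and Sox1 -0.0017), in wild-type siStag1 (Meis2 0.0043 without number 1, Zeb2 -0.052 without 2, Pax6 -0.0098 without 3), between Stag2-/- siStag1 and Stag2-/- siGLO (Tubb3 0.046 without 1), against wild-type siStag1 (Sox1 -0.78 and Meis1 -0.062 without 3) and in the interaction (Meis2 0.11 without 2).

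Over all genes, calls in wild-type siStag1 went from 36 to 236 with the block, 133 with DESeq2, 126 with only the libraries compared and 22 at a threshold of 0.05. Between Stag2-/- siStag1 and Stag2-/- siGLO they went from 924 to 2049, 224 and 548 with the block, only the libraries compared and a threshold of 0.05. They went from 2907 to 4443 with the block in Stag1-/- siGLO, from 3722 to 2406 with only the libraries compared between the knockouts, and from 23 to 138, 102 and 14 with the block, DESeq2 and only the libraries compared in the interaction. Without single libraries they ranged from 1 to 57 in wild-type siStag1, 416 to 1484 between Stag2-/- siStag1 and Stag2-/- siGLO (fewest and most without replicates 3 and 1 of the former) and 13 to 76 in the interaction, and fell to 2524 in Stag2-/- siGLO and 1915 in Stag1-/- siGLO without replicate 2 of wild-type siGLO. Without replicate 2 of every condition they were 732 in Stag2-/- siGLO, 690 in Stag1-/- siGLO and 671 between the knockouts. Depth limits mostly Meis2, which had as few as 8 counts in 1 library.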
